A study of Mus musculus with 58 samples.

Results

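Transcript levels of 10 Toll-like receptor genes were followed in microglia sorted from the mouse forebrain, in wild-type mice, in mice of the SgshKO genotype and after antisense knockdown of the transcription factors Mitf, Tfeb or Tfe3. The receptors were taken by gene symbol from the raw count tables. The 24940 genes of the age series include all 10: the endosomal receptors Tlr3, Tlr7, Tlr8, Tlr9 and Tlr13, and the surface receptors Tlr1, Tlr2, Tlr4, Tlr5 and Tlr6. Both antisense tables list 9 of them, among 10277 genes in wild-type and 10589 genes in SgshKO libraries, and Tlr8 is not listed there.

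All 58 libraries came from C57BL/6 mice, and each is polyA RNA of cells gated as live, single, positive for CD11b and CX3CR1 and low for CD45. The age series holds WT mice of 3 weeks (3 libraries), 4 months (2) and 8 months (4) and SgshKO mice of 3 weeks (4), 4 months (2) and 8 months (7). Sgsh encodes a lysosomal sulfatase that degrades heparan sulfate, and its loss causes the childhood storage disease Sanfilippo syndrome. Antisense oligonucleotides (ASOs), short synthetic strands that lower the level of a chosen mRNA, were given once into the cerebral ventricles, with collection after 14 days. WT mice received PBS, an ASO called ntc in the labels, or 1 of the ASOs directed at Mitf, at Tfeb and at Tfe3, with 4 libraries in each group, and SgshKO mice received ntc or the Mitf and Tfe3 ASOs together, with 8 libraries in each group. Nothing in the sources used here gives the ages of the ASO mice, the sex of any mouse or the altered part of Sgsh, and nothing gives the number of animals behind a library, so the p-values measure the spread between libraries, which may be partly technical.

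Toll-like receptors recognise molecules of microbes and of damaged cells. Those at the cell surface bind lipoproteins, lipopolysaccharide and flagellin, whereas those of the endosome bind nucleic acids, are brought there by the chaperone Unc93b1 and are cut by lysosomal proteases before they signal. Most signal through the adaptor Myd88, Tlr3 signals through Ticam1 and Tlr4 through both, and the pathways end in NF-kappaB and interferon regulatory factors. In the brain, microglia are the main cells that carry these receptors. Mitf, Tfeb and Tfe3 are related transcription factors that bind E-box sequences and drive lysosomal genes.

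Sequences upstream of the transcription start were read from RefSeq (GRCm38.p6), which held an entry for 8 of the 10 receptors in the table used here. The 250 bases before each start were searched on both strands for CACGTG and CACATG (E-boxes), GGAAGT (the core bound by PU.1), TGANTCA (AP-1), the interferon-stimulated response element bound by interferon regulatory factors, and the NF-kappaB motif. The following 3 are shown because Tlr2 and Tlr8 had the highest SgshKO-to-WT ratios at 8 months and Tlr5 the lowest, with capitals marking the motif matches.
Tlr2, chr3:83841609-83841858, minus strand: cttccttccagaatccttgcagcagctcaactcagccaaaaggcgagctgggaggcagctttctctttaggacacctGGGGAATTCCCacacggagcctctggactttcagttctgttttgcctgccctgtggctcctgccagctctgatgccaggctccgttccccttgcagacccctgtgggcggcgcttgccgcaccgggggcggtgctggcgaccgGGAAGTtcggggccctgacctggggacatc
Tlr8, chrX:167264330-167264579, minus strand: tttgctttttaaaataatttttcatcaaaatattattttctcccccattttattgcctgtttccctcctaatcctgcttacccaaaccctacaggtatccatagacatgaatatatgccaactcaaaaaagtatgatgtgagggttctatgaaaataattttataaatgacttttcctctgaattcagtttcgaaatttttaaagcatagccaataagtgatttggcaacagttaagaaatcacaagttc
Tlr5, chr1:182954538-182954787, plus strand: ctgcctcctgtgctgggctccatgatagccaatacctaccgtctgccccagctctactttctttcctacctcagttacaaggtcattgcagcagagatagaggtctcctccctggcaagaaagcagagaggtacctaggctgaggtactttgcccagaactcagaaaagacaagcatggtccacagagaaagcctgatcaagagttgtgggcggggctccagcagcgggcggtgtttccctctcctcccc
The capitals of Tlr2 are a run at bases -173 to -163 from the start that holds overlapping NF-kappaB matches, and GGAAGT at -30 to -25. Among the same 250 bases of all 32851 promoters, 7.25% hold the NF-kappaB motif and 19.7% hold GGAAGT, so matches of either kind are common. None of the motifs was found in these letters before Tlr5, Tlr8 or Tlr13. CACGTG, which 6.02% of promoters hold, was found only for Tlr1, at -195 to -190 of a start that lies 859 bases from the one in the count table. Tlr9 has an AP-1 match at -58 to -52 (6.75% of promoters), and Tlr3 has an NF-kappaB match at -211 to -202 of a start 239 bases from that of the count table. Tlr6 has 2 overlapping matches of the interferon-stimulated element at -116 to -101, which 2.98% of promoters hold, and a GGAAGT core at -62 to -57, all of a start 930 bases from that of the count table. GGAAGT also lies at -21 to -16 of the Tlr1 start that the count table uses. These matches are descriptions of the letters and do not show that a factor binds.

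In the coordinates of the count table (GRCm38), Tlr7 (X:167304926-167330571), Tlr8 (X:167241123-167264329) and Tlr13 (X:106143275-106160493) lie on the X chromosome, where Tlr7 and Tlr8 are neighbours. Tlr3 lies at 8:45395665-45410619 and Tlr9 at 9:106222598-106226876. Among the surface receptors, Tlr1 (5:64924680-64933558) and Tlr6 (5:64952030-64960096) are neighbours, and Tlr2 (3:83836272-83841608), Tlr4 (4:66827551-66846581) and Tlr5 (1:182954788-182976044) stand alone. Of the 50-base stretches in the transcripts of Tlr1, 13.6% also occur in Tlr6, so the division of reads between those 2 genes is uncertain. Tlr3 overlaps an antisense gene, Gm45542, by 557 bases on the opposite strand; the libraries mark strand, but whether the counting used it is not given in the sources used here.

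Several facts of the age series bear on the receptors. Libraries held 8191508 to 27106584 counts, and levels are given as CPM, counts brought to a common library size with TMM factors. All 10 microglia markers fixed for the check were present in every group, and in SgshKO 3 of the 10 were called lower at 3 weeks, against 3.72% of all genes, 8 lower at 4 months, against 9.26%, and 8 lower and 1 higher at 8 months, against 18.9% lower and 21.6% higher. Sgsh transcript was still detected in SgshKO (8 months, log2 fold change -0.74, adjusted p = 0.000583), so it does not by itself identify the genotype. Xist was high and Ddx3y low in all 3-week libraries of both genotypes; Ddx3y was over 10 CPM in 1 of 2 libraries of each genotype at 4 months, in all 4 WT and in 4 of 7 SgshKO libraries at 8 months, and in all ASO libraries. The summed level of 11 neutrophil markers was at most 7.33 CPM in WT at any age, and in SgshKO it was 1.74 to 29.4 at 3 weeks, 2809 to 13938 at 4 months and 407 to 5488 at 8 months. Of these markers 10 were called higher in SgshKO at 4 months, when 19.5% of all genes were called in either direction. All 11 were called higher at 8 months, against 21.6% of genes. Ly6g, Elane, Retnlg and Mpo were at 0 in all 4 WT libraries of 8 months. For markers so near 0 in WT, the filter on low counts before the test favoured a higher call. The counts of markers called at 4 and 8 months are to be read with that limit. Summed monocyte markers at 8 months were 82.6 to 525.8 in SgshKO and 12.7 to 16.9 in WT, and those of border macrophages 60.5 to 106 and 16.7 to 32.8. At 4 months the monocyte sums were 392 to 1496 in SgshKO and 23.5 to 28.0 in WT. Those of border macrophages were 69.3 to 123 and 10.2 to 11.0. At 3 weeks the monocyte sums overlapped (11.4 to 16.8 in SgshKO and 11.7 to 18.9 in WT). Those of border macrophages were 83.4 to 110 in SgshKO and 55.8 to 76.3 in WT. The part of neutrophils, monocytes and border macrophages in the receptor values was not tested at any age. At 4 months both SgshKO libraries exceed 1000 CPM of neutrophil markers. At 8 months, 2 SgshKO libraries exceed that level, and results are given with and without them.

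Compared per length, as deposited TPM (counts scaled by transcript length and library size), Tlr7 was the most abundant receptor in WT at 8 months, with 457 ± 60.4 TPM (SD, n = 4). It was followed by Tlr13 at 180.0 ± 19.4, Tlr9 at 101 ± 17.9 and Tlr3 at 76.5 ± 12.2, then by the surface receptors Tlr2 at 51.5 ± 3.48, Tlr4 at 43.0 ± 4.07, Tlr1 at 35.3 ± 3.13, Tlr6 at 29.2 ± 3.32 and Tlr5 at 20.5 ± 3.69. Tlr8 was close to 0, at 0.037 ± 0.065. The library ranges of the neighbours Tlr9 and Tlr3, Tlr2 and Tlr4, and Tlr1 and Tlr6 overlapped, so their order is not settled. The order by TPM also rests on 1 transcript length per gene, such as 7886 bases for Tlr4 and 2850 for Tlr2. Other lengths could change it. In SgshKO at 8 months (n = 7) Tlr7 was again first by mean, at 241 ± 53.2 TPM, followed by Tlr13 at 159 ± 34.9 and Tlr2 at 142 ± 14.1. The ranges of Tlr7 and Tlr13 overlapped, as did those of Tlr13 and Tlr2, so the order of these neighbours is not settled. Tlr5 was at 2.61 ± 0.513 TPM and Tlr8 at 0.718 ± 0.526 in those libraries.

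**Figure D1:**
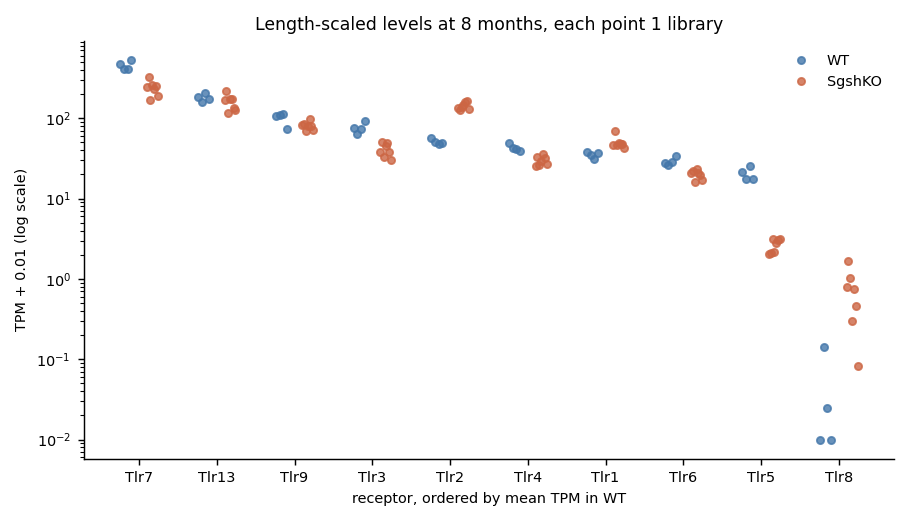
TPM of each receptor in every 8-month library on a log scale, with a small constant added so that 0 can be drawn, WT in blue (4 libraries) and SgshKO in orange (7). Tlr7 is highest and Tlr8 lowest in WT. The SgshKO points lie above those of WT for Tlr1 and Tlr2 and below them for Tlr3, Tlr4, Tlr5, Tlr6 and Tlr7. They overlap with those of WT for Tlr8, Tlr9 and Tlr13. For Tlr8 the overlap is small, with 0.073 to 1.66 TPM (median 0.738) in SgshKO and 0 to 0.134 in WT.

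Added up within each class, endosomal receptors outweighed surface receptors in every library of the age series. In WT the ratio of the summed TPM was 2.34 to 2.55 at 3 weeks, 3.43 to 3.76 at 4 months and 4.33 to 4.93 at 8 months. In SgshKO it was 2.18 to 2.77, 1.99 to 2.26 and 1.68 to 2.72 at the same ages. The ranges of the genotypes overlapped at 3 weeks and not at 4 or 8 months, and Tlr7 and Tlr2, the most abundant receptors of their classes, weigh most in these sums.

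The first question of the age series is how the SgshKO genotype changes the receptors at each age. At 8 months 8 of the 10 receptors differed from WT (adjusted p under 0.05, edgeR's quasi-likelihood test with Benjamini-Hochberg adjustment over all genes), against a background of 40.5% of the 14309 genes tested. Tlr2, Tlr1 and Tlr8 were higher (3 of 10, against 21.6% of genes), and Tlr5, Tlr7, Tlr3, Tlr6 and Tlr4 were lower (5 of 10, against 18.9%). Tlr8 passed the filter on low counts that precedes the test only through SgshKO libraries of 4 and 8 months. In WT at 8 months it was at most 0.436 CPM. The filter thus favoured a higher call for Tlr8, and the counts that hold it are to be read with that limit. At 3 weeks 2 of 10 differed, Tlr3 and Tlr5, both lower, with a background of 9.03% (3.72% lower), and at 4 months 5 of 10, with a background of 19.5%. The class medians of the log2 fold change at 8 months were -0.17 for endosomal and -0.38 for surface receptors, beside 0.02 for all genes, and both classes held members that rose and members that fell. The CPM below compare libraries for 1 gene and not genes with each other.

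**Figure D2:**
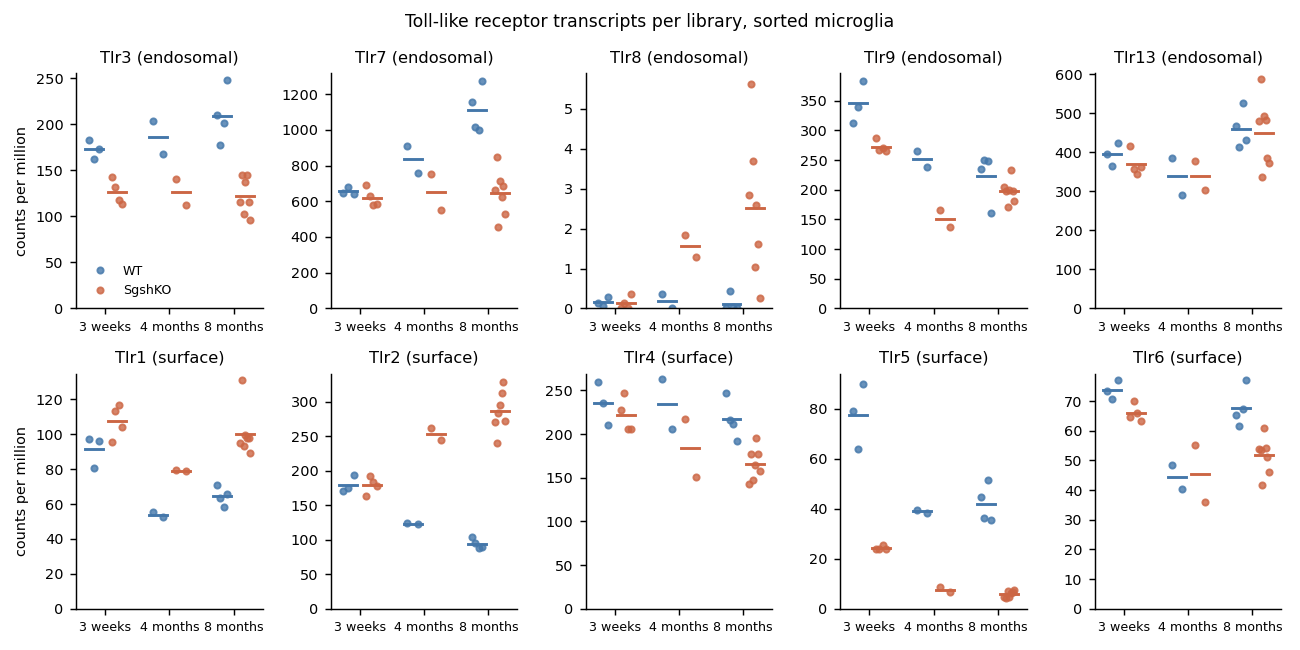
CPM of the 10 receptors in each library of the age series by age, WT in blue and SgshKO in orange, with bars at the group means. Tlr2 separates the genotypes upward at 4 and 8 months, Tlr5 downward at all 3 ages, and Tlr13 overlaps at every age.

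Among the endosomal receptors, Tlr7, a sensor of single-stranded RNA, was lower in SgshKO at 8 months. WT libraries held 1158, 1016, 996 and 1275 CPM, and SgshKO libraries ranged from 454 to 846 CPM (median 665), so that every SgshKO library lay below every WT library (a 1.72-fold difference, log2 fold change -0.79, SE 0.119, adjusted p = 8.66e-06). Groups did not overlap for 6 of the 10 receptors at this age, against 25.2% of all genes. At 3 weeks the WT libraries held 645, 682 and 638 CPM and the SgshKO libraries 689, 630.1, 579 and 584, which overlap (log2 fold change -0.08, adjusted p = 0.867). At 4 months the values were 907 and 761 CPM in WT and 749.9 and 551 in SgshKO, with the SgshKO pair below the WT pair but no call (log2 fold change -0.36, adjusted p = 0.217).

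Tlr3, the sensor of double-stranded RNA, was lower in SgshKO at all 3 ages. At 3 weeks WT libraries held 183, 162 and 173 CPM and SgshKO libraries 143, 132, 118 and 113, without overlap (log2 fold change -0.45, SE 0.136, adjusted p = 0.0392). Non-overlapping groups were seen for 4 of 10 receptors at 3 weeks, against 22.5% of all genes. This call was lost in 6 of the 7 fits that left out 1 library (adjusted p up to 0.155) and was kept only without SgshKO replicate 1. At 4 months the values were 204 and 167 CPM in WT and 141 and 112 in SgshKO, again apart (log2 fold change -0.55, SE 0.182, adjusted p = 0.0327); no call was made without SgshKO replicate 2 or without WT replicate 1. At 8 months WT libraries held 210.0, 178, 202 and 248 CPM and SgshKO libraries ranged from 95.9 to 145 CPM (median 116), below all of them (log2 fold change -0.77, SE 0.110, adjusted p = 3.87e-06).

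Tlr9, the sensor of unmethylated CpG DNA, passed edgeR's test at 4 months, with 265 and 238 CPM in WT and 166 and 137 in SgshKO (log2 fold change -0.73, SE 0.162, adjusted p = 0.00199). Both SgshKO libraries lay below both WT libraries. At this age the genotypes did not overlap for 7 of 10 receptors, against 58.1% of all genes. At 3 weeks Tlr9 was 313, 339.8 and 384 CPM in WT and 287, 267, 271 and 265 in SgshKO, apart but not called (log2 fold change -0.34, adjusted p = 0.0829); DESeq2 (adjusted p = 0.0313) and edgeR on the 3-week libraries alone (adjusted p = 0.019) did call it. At 8 months WT replicate 4, at 161 CPM, lay below every SgshKO library (171 to 234) while the other 3 WT libraries held 235 to 250 (log2 fold change -0.17, adjusted p = 0.171). Without that library the 8-month difference passed the test (log2 fold change -0.33, adjusted p = 0.00269), as it also did on the TPM (-0.30, adjusted p = 0.0254).

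Tlr13, the mouse sensor of bacterial ribosomal RNA, did not pass the test at any age and overlapped at each. Its log2 fold changes were -0.09, 0.01 and -0.04 at 3 weeks, 4 months and 8 months, with adjusted p of 0.83, 0.988 and 0.835. In WT at 8 months it was at 469, 415, 527 and 432 CPM, and in SgshKO it ranged from 338 to 588 CPM (median 481).

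Tlr8, a relative and genomic neighbour of Tlr7 that also senses RNA, was at the edge of detection. In WT at 8 months the libraries held 0, 0.436, 0.0472 and 0 CPM, and in SgshKO they held 2.83, 5.61, 3.70, 1.03, 2.59, 1.603 and 0.271. 6 values of the SgshKO group lay above all WT values and SgshKO replicate 7 lay below WT replicate 2, so the groups overlap (log2 fold change 4.15, SE 1.01, adjusted p = 0.00187). Summed over libraries, 354 reads against 10 gave a ratio of 18.03 of the depth-scaled sums, with a 95% interval of 9.69 to 37.9 that covers counting error only. The 4-month sums were 30 and 3 reads (ratio 11.3, interval 3.52 to 57.9), and the 3-week sums were 8 and 8 (ratio 0.738, interval 0.241 to 2.26). At 8 months Tlr7 was called lower and Tlr8 higher, on very different scales of abundance. The filter on low counts favoured the Tlr8 call, so no contrast between Tlr7 and Tlr8 is drawn from it.

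Of the surface receptors, Tlr5, which binds bacterial flagellin, was the lowest in SgshKO relative to WT at every age. At 3 weeks WT libraries held 79.2, 64.0 and 89.9 CPM and SgshKO libraries 23.7, 23.8, 25.5 and 23.7 (a 3.21-fold difference, log2 fold change -1.68, SE 0.164, adjusted p = 1.03e-07). At 4 months the values were 39.5 and 38.4 CPM against 8.68 and 6.53 (5.16-fold, log2 fold change -2.37, SE 0.244, adjusted p = 1.86e-07). At 8 months WT held 44.7, 36.1, 51.5 and 35.4 CPM and SgshKO ranged from 4.43 to 7.32 CPM (median 6.14) (7.10-fold, log2 fold change -2.83, SE 0.139, adjusted p = 5.1e-14). No SgshKO library reached the lowest WT library of its age, and the call was made in every alternative tried at the 3 ages. Because these are bulk libraries, fewer cells with the transcript and less transcript per cell cannot be told apart.

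Tlr2, which pairs with Tlr1 or Tlr6 to bind lipoproteins, did not differ beyond the spread at 3 weeks: 170.4, 175 and 193 CPM in WT and 164, 192, 184 and 178 in SgshKO (log2 fold change -0.00, adjusted p = 0.998). At 4 months WT libraries held 125 and 122 CPM and SgshKO libraries 262 and 245, which is 2.05-fold higher (log2 fold change 1.04, SE 0.123, adjusted p = 1.34e-06). At 8 months WT libraries held 103, 94.9, 87.96 and 88.8 CPM and SgshKO libraries ranged from 239.7 to 329 CPM (median 283) (3.05-fold, log2 fold change 1.61, SE 0.0814, adjusted p = 8.13e-14). The groups stand far apart at the later ages.

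Tlr1, a partner of Tlr2, was also higher at 8 months, with 70.96, 63.4, 58.3 and 65.8 CPM in WT and a range from 89.2 to 131 CPM (median 97.9) in SgshKO, above all WT libraries (log2 fold change 0.64, SE 0.0926, adjusted p = 4.98e-06). At 4 months it was 55.3 and 52.6 CPM in WT and 79.3 and 79.2 in SgshKO (log2 fold change 0.56, SE 0.148, adjusted p = 0.00925), a call that was lost on the TPM and without SgshKO replicate 2 or WT replicate 2. Tlr6, the other partner, went the opposite way at 8 months: 65.1, 61.6, 67.3 and 77.2 CPM in WT and a range from 41.8 to 60.9 CPM (median 53.6) in SgshKO, which lay below all WT libraries (log2 fold change -0.39, SE 0.102, adjusted p = 0.0033). It passed no test at 3 weeks or 4 months (adjusted p = 0.566 and 0.918). As Tlr1 and Tlr6 share sequence, a shift of reads between them would alter both values.

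Tlr4, the lipopolysaccharide receptor, was modestly lower at 8 months. WT libraries held 247, 216, 212 and 192 CPM and SgshKO libraries ranged from 143 to 195 CPM (median 164), with the highest SgshKO library just above the lowest WT library (log2 fold change -0.38, SE 0.102, adjusted p = 0.00388). It was not called at 3 weeks or 4 months (log2 fold change -0.09, adjusted p = 0.806, and -0.35, adjusted p = 0.151).

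**Figure D3:**
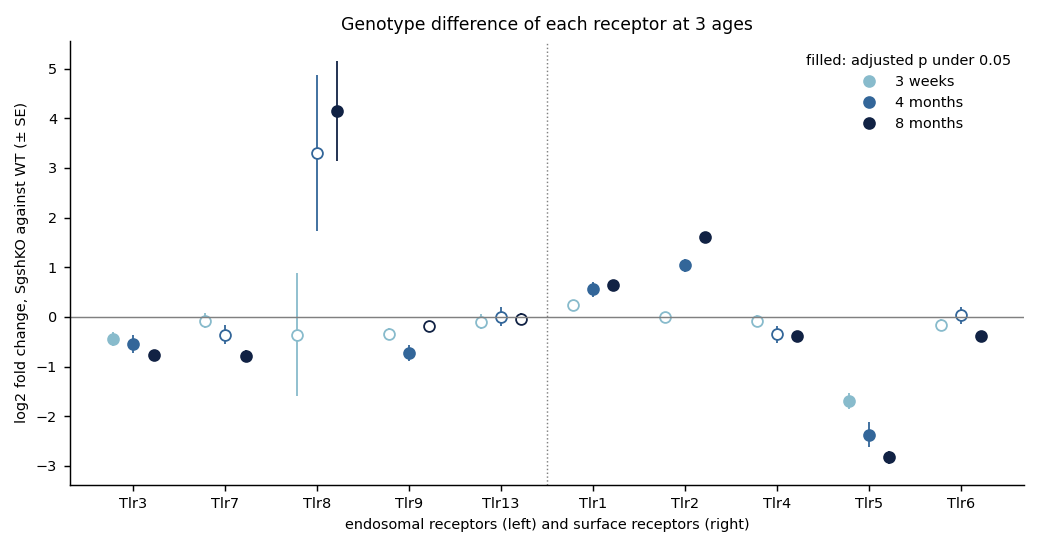
Log2 fold change of SgshKO against WT for each receptor at 3 weeks, 4 months and 8 months (light to dark), with bars of 1 SE and filled points where adjusted p is under 0.05. Tlr5 is below 0 and called at all ages, Tlr2 moves from 0 at 3 weeks to 1.61 at 8 months, and Tlr8 carries the widest bars.

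All 8 calls at 8 months were made again without the 2 SgshKO libraries richest in neutrophil markers (5 SgshKO against 4 WT). Tlr2 then had a log2 fold change of 1.62, Tlr8 of 3.97 and Tlr5 of -2.83. The 5 SgshKO libraries kept still held 407 to 774 CPM of these markers, beside 1.89 to 3.54 in WT. This fit therefore does not test the part of neutrophils in the values. The 8 calls were also made among the 4 SgshKO and 4 WT libraries with Ddx3y over 10 CPM, with values of 1.57, 4.40 and -3.07, and -0.65 for the X-linked Tlr7.

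**Figure D4:**
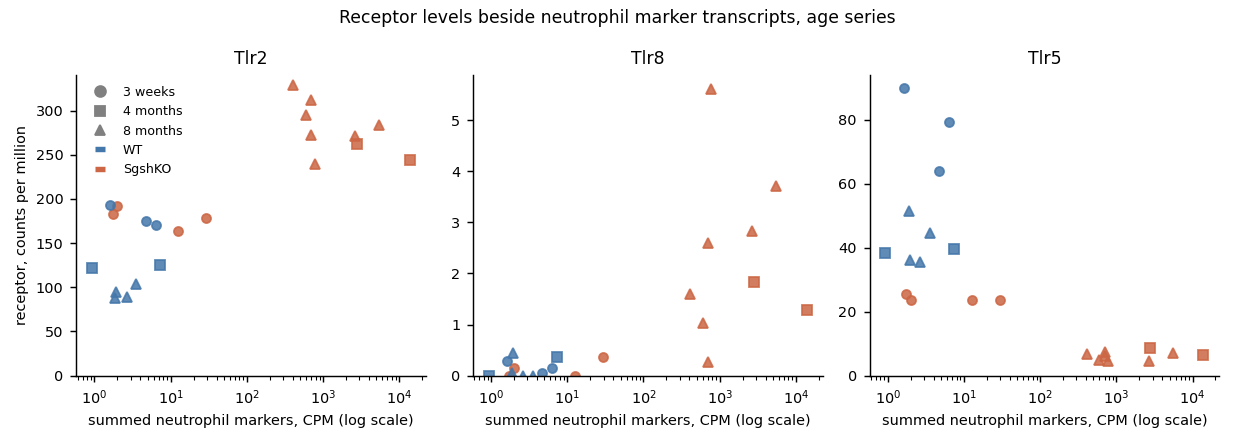
CPM of Tlr2, Tlr8 and Tlr5 against the summed CPM of 11 neutrophil markers (log axis) in each of the 22 age-series libraries, with shape for age and colour for genotype. In the SgshKO libraries of 4 and 8 months both Tlr2 (239.7 to 329 CPM) and the marker sum (407 to 13938 CPM) lie above those of every other library.

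Whether the genotype difference itself changed with age was tested by interaction terms in the same model. Between 3 weeks and 4 months 1 receptor changed its genotype difference, in log2 fold change, Tlr2 (1.04, SE 0.153, adjusted p = 0.000389), with a background of 2.52% of genes. Between 3 weeks and 8 months 3 did, with a background of 9.25%: Tlr2 (1.61, SE 0.121, adjusted p = 5.18e-09), Tlr5 (-1.14, SE 0.217, adjusted p = 0.0011) and Tlr7 (-0.71, SE 0.191, adjusted p = 0.0192). The Tlr2 and Tlr5 differences grew in size, and that of Tlr7 went from -0.08 to -0.79. When same-numbered libraries were blocked together (a replicate block), the Tlr7 term had adjusted p = 0.0514. With the Ddx3y minus Xist difference as a covariate, edgeR gave these 8-month terms adjusted p = 3.66e-08 for Tlr2, 0.000101 for Tlr5 and 0.0403 for Tlr7. Between 4 and 8 months edgeR called none of the 10, with a background of 0.391%. At an unadjusted p under 0.05 it had 3 receptors and 1641 of the 14309 genes. DESeq2 called 1 receptor, Tlr2, with its share of all genes not given here.

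In WT, 5 of 10 receptors differed between 8 months and 3 weeks, with a background of 7.65% of genes. Tlr7 was higher at 8 months (log2 fold change 0.76, SE 0.150, adjusted p = 0.00166). Tlr2 (-0.94, adjusted p = 3.67e-07), Tlr5 (-0.89, adjusted p = 0.000761), Tlr9 (-0.63, adjusted p = 0.00137) and Tlr1 (-0.50, adjusted p = 0.00447) were lower. The ages did not overlap for 5 receptors, against 20.4% of all genes. All WT libraries of 3 weeks were Xist-high and all of 8 months Ddx3y-high, so within WT age and the sex-linked transcripts cannot be told apart; with Ddx3y minus Xist as a covariate over all 22 libraries, Tlr7 (0.63, adjusted p = 0.0837) and Tlr5 (-0.47, adjusted p = 0.227) were no longer called.

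In SgshKO, 6 of 10 receptors differed between 8 months and 3 weeks, with a background of 30.6%, and the groups did not overlap for 5, against 19.9%. Ddx3y was over 10 CPM in 0 of 4 of these libraries at 3 weeks and in 4 of 7 at 8 months. Neutrophil markers summed to 1.74 to 29.4 CPM at 3 weeks and 407 to 5488 CPM at 8 months. The part of neutrophils in these age differences was not tested. Tlr2 (log2 fold change 0.67, SE 0.0776, adjusted p = 3.85e-07) and Tlr8 (log2 fold change 4.26, SE 1.03, adjusted p = 0.00273) rose. The filter on low counts favoured the Tlr8 call here too. Tlr5 (-2.03, adjusted p = 1.05e-10), Tlr9 (-0.46, adjusted p = 0.000928), Tlr4 (-0.42, adjusted p = 0.00292) and Tlr6 (-0.35, adjusted p = 0.00998) fell. Tlr2 was therefore lower at 8 months than at 3 weeks in WT, with means of 93.7 ± 7.08 CPM and 179.6 ± 12.01 CPM (SD, n = 4 and 3), and higher in SgshKO, with means of 286 ± 29.4 CPM and 179 ± 11.7 CPM (SD, n = 7 and 4).

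The genes that work with the receptors were counted in lists, each to be read against the share of all genes called at the same age. Of 6 co-receptors and accessory proteins, 1 was lower at 3 weeks and at 4 months, and at 8 months 4 were higher and 1 lower (list median 0.47, all genes 0.02). Of all genes 9.03%, 19.5% and 40.5% were called at these ages. The lower one was at each age Cd14, which hands lipopolysaccharide to Tlr4: its log2 fold changes were -0.79, adjusted p = 1.35e-05 at 3 weeks, -0.53, adjusted p = 0.00951 at 4 months and -0.81, adjusted p = 4.97e-08 at 8 months. Ly96, the MD-2 subunit that binds lipopolysaccharide with Tlr4, passed no test (-0.06, adjusted p = 0.797 at 8 months). Ly86 (0.48, adjusted p = 0.000153), Cd180 (0.46, adjusted p = 0.00279) and Lbp, the lipopolysaccharide-binding protein (4.02, adjusted p = 0.000155), were higher at 8 months.

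Of 10 genes for folding and transport of the receptors, 2 rose and 2 fell at 4 months and 5 rose and 3 fell at 8 months (list median 0.20), against 19.5% and 40.5% of all genes called. At 3 weeks none was called by edgeR, and 1 had an unadjusted p under 0.05, as did 2739 of the 14309 genes. Unc93b1, the chaperone of the endosomal receptors, fell by 0.45 at 4 months (adjusted p = 0.00115) and by 0.17 at 8 months (adjusted p = 0.0182) on the log2 scale. Rab7b, a late endosomal GTPase, rose at 4 months (2.88, adjusted p = 0.000333) and at 8 months (4.92, adjusted p = 2.35e-10). Slc15a4, an endolysosomal transporter needed for Tlr7 and Tlr9 signalling, fell at 8 months (-0.35, adjusted p = 0.0235), and Cnpy4, a relative of a receptor-folding chaperone, rose (0.54, adjusted p = 0.0253).

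Of 11 genes for receptor cleavage and handling of nucleic acids, 5 rose at 3 weeks and none fell, 5 rose and 2 fell at 4 months, and 6 rose and 1 fell at 8 months (list median 0.54), where 9.03%, 19.5% and 40.5% of all genes were called. Ctsb, a lysosomal cathepsin, rose at all ages (1.45, adjusted p = 3.17e-12 at 3 weeks, 1.91, adjusted p = 9.76e-17 at 8 months). So did Ctss, the cathepsin of antigen processing (0.32, adjusted p = 0.00363 and 1.07, adjusted p = 8.12e-13), and Pld3, an exonuclease that degrades Tlr9 ligands (1.01, adjusted p = 1.89e-07 and 2.06, adjusted p = 6.39e-15). All 3 are lysosomal enzymes with other substrates besides.

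Of 20 adaptors and proximal kinases, edgeR called none at 3 weeks, with none at an unadjusted p under 0.05 either. At 4 months 1 rose and 4 fell, and at 8 months 4 rose and 7 fell (list median -0.11), against the 19.5% and 40.5% of all genes called. Myd88 fell at 4 months (-0.60, adjusted p = 0.0457) and at 8 months (-0.68, adjusted p = 0.000106), whereas Ticam1 passed no test (-0.11, adjusted p = 0.296 at 8 months). Tirap, which links Tlr2 and Tlr4 to Myd88, fell at 4 months (-0.95, adjusted p = 7.07e-05) and 8 months (-0.70, adjusted p = 9.14e-07), Tab2 fell at 8 months (-0.48, adjusted p = 1.77e-05) and Traf3 rose (0.74, adjusted p = 5.66e-05).

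Among 10 transcription factors of the pathway, 4 rose and 2 fell at 8 months (list median -0.08), and 1 fell at 4 months. At 3 weeks none was called, with 1 at an unadjusted p under 0.05, as were 2739 of the 14309 genes. Of all genes 40.5% were called at 8 months, 19.5% at 4 months and 9.03% at 3 weeks. Relb (1.58, adjusted p = 1.97e-07) and Nfkb2 (0.93, adjusted p = 2.5e-06), both of the alternative NF-kappaB branch, rose at 8 months, and Irf5, which acts below Myd88, fell (-0.44, adjusted p = 2.59e-05). Of 16 inhibitors, 2 rose at 3 weeks, 1 at 4 months and 5 at 8 months, and none fell at the 3 ages (list median -0.02 at 8 months). These shares are read against 9.03%, 19.5% and 40.5% of all genes called, and against 21.6% of genes called higher at 8 months. The pseudokinase Irak3 (1.71, adjusted p = 7.28e-06), Tnip1 (0.84, adjusted p = 9.84e-06) and Tnfaip3, or A20 (0.61, adjusted p = 0.00425), were among the 5.

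Of 18 tested target genes of Toll-like receptor signalling, 4 rose and 1 fell at 3 weeks, 5 rose at 4 months and 13 rose at 8 months, with no call lower at the later ages (list median 1.55 at 8 months). Of all genes 9.03% were called at 3 weeks and 19.5% at 4 months, and 21.6% were called higher at 8 months. The chemokine Ccl3 rose at all 3 ages (1.85, adjusted p = 1.51e-07, then 1.84, adjusted p = 2.94e-06, then 2.15, adjusted p = 5.29e-11). Tnf rose at 4 months (1.26, adjusted p = 0.0284) and 8 months (1.88, adjusted p = 6.79e-06), and Ccl4 at 3 weeks (1.21, adjusted p = 0.00471) and 8 months (1.51, adjusted p = 9.43e-06). Several of these genes are induced by other routes and in other leukocytes, and neutrophil and monocyte markers were higher in the same SgshKO libraries of 4 and 8 months; their part in these values was not tested. Markers of the response to cell dissociation, summed, were at 23230, 5022, 6681 and 10737 CPM in SgshKO and 5095, 8011 and 7189 in WT at 3 weeks, so that 2 SgshKO libraries exceeded every WT library. They were at 14696 to 16897 CPM in SgshKO and 19880 to 26166 in WT at 4 months, and at 5059.6 to 8508 beside 8616 to 10761 at 8 months, with SgshKO below WT at both ages. Their part in the values of the target genes was not tested.

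For comparison, of 8 cytosolic nucleic acid sensors and their adaptors 2 fell at 3 weeks and 4 months, and 3 rose and 3 fell at 8 months (list median 0.04), against 9.03%, 19.5% and 40.5% of all genes called. Tmem173, which encodes STING (-0.63, adjusted p = 5.43e-06 at 3 weeks and -0.69, adjusted p = 6.79e-09 at 8 months), and Mb21d1, which encodes cGAS (-0.56, adjusted p = 0.00188 and -0.97, adjusted p = 7.74e-09), fell together. Ifih1, the double-stranded RNA sensor MDA5, rose at 8 months (0.55, adjusted p = 0.000531).

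The second question was what lowering Mitf, Tfeb or Tfe3 does to the receptors in WT microglia. Each ASO lowered its target: the log2 fold changes against ntc were -4.81 for Mitf, -3.24 for Tfeb and -2.38 for Tfe3 (adjusted p of at most 8.37e-15). The 3 comparisons share the 4 ntc libraries. Between ntc and PBS edgeR called none of the 9 receptors and 0% of 10277 genes; no receptor and 415 genes had an unadjusted p under 0.05, and DESeq2 called no receptor and 2 genes. Tlr9 lay lower in all ntc libraries (389.5 to 408.8 CPM) than in any PBS library (418.5 to 438 CPM), 1 of 9 receptors without overlap against 0.915% of genes. No neutrophil marker of the list is in this table.

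With the Mitf ASO 3 of 9 receptors were lower and none higher, with a background of 11% of genes (5.21% lower). Tlr5 fell most: ntc libraries held 44.7, 49.9, 34.9 and 40.8 CPM, PBS libraries 51.8, 50.4, 41.9 and 42.4 and Mitf ASO libraries 25.5, 23.6, 24.5 and 29.0, all below the lowest control (1.65-fold, log2 fold change -0.72, SE 0.109, adjusted p = 0.000335). The groups did not overlap for 2 of 9 receptors, against 7.67% of genes, and the Tlr5 call was made in every alternative. Tlr9 was at 389.5, 409, 396 and 409 CPM with ntc and 349, 335, 333 and 378 with the Mitf ASO, also apart (log2 fold change -0.20, SE 0.0575, adjusted p = 0.0305).

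Tlr3 was at 218, 229.6, 254 and 277 CPM with ntc and 173, 201, 233 and 239.9 with the Mitf ASO, which overlap, though each Mitf ASO library was below the ntc library of its own number (log2 fold change -0.21, SE 0.0607, adjusted p = 0.0292). Both small differences rest on the block for the number called grp in the titles: without it neither Tlr9 nor Tlr3 was called. They were also lost in 6 and 4 of the 8 fits that left out 1 library. Tlr4, Tlr6 and Tlr7 were lower without a call (log2 fold changes -0.25, -0.23 and -0.25), and Tlr1, Tlr2 and Tlr13 lay between 0.02 and 0.10. With the Mitf ASO 6 of 9 receptors had an unadjusted p under 0.05 in edgeR's test, Tlr4, Tlr6 and Tlr7 among them. Of all 10277 genes 2651 did. DESeq2 called 4 receptors, with its share of all genes not given here.

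With the Tfeb ASO 1 of 9 receptors passed the test, with a background of 0.778% of genes (0.214% lower). Tlr7 was at 858, 853, 1055 and 1082 CPM with ntc and 594, 691, 828 and 652 with the Tfeb ASO, without overlap (1.40-fold, log2 fold change -0.48, SE 0.104, adjusted p = 0.034). It was the only receptor of 9 without overlap, against 4.07% of genes. PBS libraries ranged from 749.8 to 1222 CPM. The call was lost in all 8 fits without 1 library (adjusted p up to 0.161) and without the grp block (adjusted p = 0.300).

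With the Tfe3 ASO edgeR called none of the 9, with a background of 2.16%. At an unadjusted p under 0.05 it had 2 receptors, Tlr9 and Tlr5, and 1711 of the 10277 genes. DESeq2 called 1 receptor, Tlr5, with its share of all genes not given here. Tlr5 was at 39.1, 32.0, 23.3 and 33.9 CPM, which overlaps ntc (log2 fold change -0.41, adjusted p = 0.0529). Tlr9 was at 368, 358, 308 and 379 CPM, all below the ntc libraries (-0.19, adjusted p = 0.107), 1 of 9 receptors so placed, against 4.68% of genes.

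Compared with each other, the Mitf and Tfeb ASOs differed for 1 of 9 receptors, with a background of 3.53%. Tlr5 was lower with the Mitf ASO than with the Tfeb ASO (34.1, 45.1, 31.8 and 38.3 CPM), without overlap (log2 fold change -0.53, SE 0.110, adjusted p = 0.0117), in 1 of 9 receptors against 4.07% of genes; without the grp block it was not called. Between the Mitf and Tfe3 ASOs edgeR and DESeq2 called none of 9 (edgeR background 3.76%), and none was without overlap, against 5.53% of genes. In edgeR's test 2 receptors and 1621 of 10277 genes had an unadjusted p under 0.05. Tlr5 was at a log2 fold change of -0.31, adjusted p = 0.153. Between the Tfeb and Tfe3 ASOs edgeR called none (background 1.62%), with 3 receptors and 1935 genes at an unadjusted p under 0.05. DESeq2 called 2 receptors, Tlr7 and Tlr4, with its share of all genes not given here.

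In WT ASO libraries 5 of 10 cleavage genes rose with the Mitf ASO, 3 with the Tfeb ASO, and 4 rose and 1 fell with the Tfe3 ASO, where 11%, 0.778% and 2.16% of all genes were called. Ctsb rose by 0.82, 0.28 and 0.40 on the log2 scale with the Mitf, Tfeb and Tfe3 ASOs. Pld3 rose by 0.68, 0.35 and 0.22. Of 11 target genes 2 rose with the Mitf ASO, Ccl3 (0.65, adjusted p = 0.00468) and Ccl4 (0.53, adjusted p = 0.0264), and Ccl3 rose with the Tfe3 ASO (0.62, adjusted p = 0.0224). Cd14 fell with the Mitf ASO (-0.31, adjusted p = 0.00258), as did Irf5 (-0.21, adjusted p = 0.00731) and Tmem173 (-0.19, adjusted p = 0.00609). Ly86 rose with it (0.25, adjusted p = 0.00383). Myd88 (-0.07, adjusted p = 0.442), Ticam1 (0.03, adjusted p = 0.811) and Unc93b1 (-0.10, adjusted p = 0.172) passed no test with the Mitf ASO. In the same libraries 4 of 10 microglia markers fell with the Mitf ASO, against 5.21% of all genes.

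**Figure D5:**
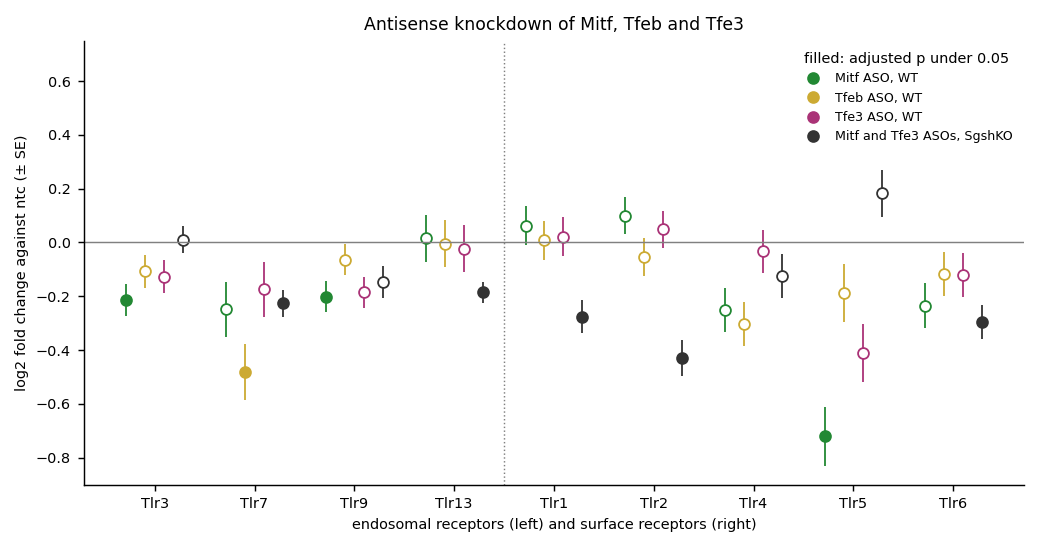
Log2 fold change against ntc of the 9 receptors listed, for the Mitf, Tfeb and Tfe3 ASOs in WT and the combined Mitf and Tfe3 ASOs in SgshKO, with bars of 1 SE and filled points where adjusted p is under 0.05. The only filled point below -0.6 is Tlr5 with the Mitf ASO, at -0.72; in SgshKO, Tlr2 is lowest at -0.43.

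In SgshKO mice the question was what the combined Mitf and Tfe3 ASOs change. Mitf fell by 2.26 and Tfe3 by 1.08 on the log2 scale. Of 9 receptors 5 were lower and none was higher, with a background of 9.33% of genes (4.5% lower). Tlr2 fell most: ntc libraries ranged from 349 to 476 CPM (median 392) and combination libraries from 266 to 357 CPM (median 289.6), which overlap slightly (1.35-fold, log2 fold change -0.43, SE 0.0669, adjusted p = 0.000676). Its partners fell too: Tlr6 ranged from 69.1 to 93.0 CPM (median 83.7) with ntc and from 60.0 to 77.7 CPM (median 65.4) with the combination (log2 fold change -0.30, SE 0.0634, adjusted p = 0.00796). Tlr1 ranged from 81.0 to 106 CPM (median 89.8) and from 65.6 to 83.8 CPM (median 76.3) (log2 fold change -0.28, SE 0.0599, adjusted p = 0.00875).

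The endosomal receptors that fell were Tlr7 and Tlr13. Tlr7 ranged from 719 to 898 CPM (median 799) with ntc and from 624.7 to 761 CPM (median 683) with the combination, overlapping (log2 fold change -0.23, SE 0.0511, adjusted p = 0.011). Tlr13 ranged from 604 to 665 CPM (median 635) and from 512 to 603 CPM (median 549), with every combination library below every ntc library (log2 fold change -0.18, SE 0.0393, adjusted p = 0.00742); it was the only receptor of 9 without overlap, against 1.06% of genes. Tlr3 (0.01, adjusted p = 0.92), Tlr9 (-0.15, adjusted p = 0.13) and Tlr4 (-0.12, adjusted p = 0.375) passed no test.

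Tlr5, lowest of all with the Mitf ASO in WT, ranged from 7.32 to 9.71 CPM (median 8.02) with ntc in SgshKO and from 8.17 to 10.5 CPM (median 9.56) with the combination, with a difference above 0 and no call (log2 fold change 0.18, SE 0.0875, adjusted p = 0.201). The WT and SgshKO tables were fitted separately and the treatments differ, so no test compares them. The 5 calls were made in all 16 fits without 1 library. Within the libraries of grp 1 alone only Tlr1 was called, and within grp 2 alone Tlr13, Tlr2 and Tlr9, each with 4 libraries against 4. The share of all genes called within each grp is not given here, so these counts cannot be set against it. Summed over the 5 listed neutrophil markers, grp 1 libraries held at most 38.5 CPM and grp 2 libraries 65.4 to 516, in both treatments.

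Among the pathway genes in SgshKO after the combination, Tnf (-0.72, adjusted p = 0.0325) and Ccl4 (-0.48, adjusted p = 0.0139) fell and Cxcl10 rose, of 11 target genes. Ctss rose (0.47, adjusted p = 1.14e-05) and Pld3 fell (-0.20, adjusted p = 0.0431), with 2 of 10 cleavage genes higher and 1 lower. Ly86 rose (0.30, adjusted p = 0.000653), and Cd14 (0.10, adjusted p = 0.152), Myd88 (0.08, adjusted p = 0.367), Ticam1 (-0.16, adjusted p = 0.0904) and Unc93b1 (-0.01, adjusted p = 0.873) passed no test. Adaptors had 1 call in each direction among 19, inhibitors 2 lower of 13, trafficking 2 higher of 9, transcription factors 1 higher of 10 and cytosolic sensors 1 higher of 8, where 9.33% of all genes were called in either direction.

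As a description of likeness, log2 CPM of each gene was correlated with the most abundant receptor of each class over the 22 libraries of the age series, which share genotype and age groups. Nearest to Tlr7 were Rbbp9 (Pearson r = 0.944), Pik3r1 (0.939) and Picalm (0.935). Nearest to Tlr2 were Clec7a (0.956), the beta-glucan receptor dectin-1, Apbb2 (0.955) and Myo1f (0.953).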

How the data were processed

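The authors deposited raw read counts per gene for the age series and for the WT and SgshKO ASO libraries, and TPM for the age series. For the ASO sets the authors also deposited a batch-corrected linear signal by a method not given in the sources used here. The submitters' processing notes name STAR 2.5.3a, kallisto 0.44.0, HOMER 4.11, DESeq2 1.36.0, R 4.2.3 and the build mm10, without roles. Totals were 8191508 to 27106584 counts in the age series, 14372015 to 30378870 in WT ASO and 12517838 to 30431437 in SgshKO ASO libraries.

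Counts were tested in R 4.3.3 with the quasi-likelihood test of edgeR 4.0.16, TMM scaling and filterByExpr at a minimum count of 10, 1 model per table, with Benjamini-Hochberg adjustment over the 14309, 10277 or 10589 genes tested and a threshold of 0.05. CPM use the TMM-scaled totals of tested genes. SEs were derived from the F statistic. ASO models held grp. After removal of group means, libraries of different WT groups sharing a grp correlated over 0.1 in 38 of 40 pairs, and others in 16 of 120. Those of SgshKO sharing grp and number did so in 8 of 8 pairs, and others in 17 of 56. The main SgshKO model held grp without the number. Same-numbered age libraries did so in 1 of 9 pairs, and others of the same age in 4 of 35. The age model has no block, as the numbers are not stated to mark a shared batch. Alternatives used limma 3.58.1 on log2(TPM + 1), DESeq2 1.42.0, other filters and left-out libraries. No pair of replicates agreed within sampling noise.

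Receptors, lists and tests were chosen with earlier results of these data known. Named genes are the 10 receptors in every comparison, then Unc93b1, Cd14, Ly96, Myd88 and Ticam1, up to 3 genes a list by lowest adjusted p at 8 months, and the 3 genes most like Tlr7 and Tlr2. The testing procedure was tested on simulated data. Proteins, single-cell and chromatin data were not used here.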

Additional observations from a re-analysis of the deposited data

Results flagged for a closer look

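In 93 pairs of a receptor and a group of 4, 7 or 8 libraries, 7 had a highest or lowest library far from the others by Dixon's test, where chance gives about 1 in 20. Tlr1 was at 130.9 CPM in SgshKO replicate 2 of 8 months, above the next library at 99.4. Tlr8 was at 0.436 CPM in WT replicate 2 of 8 months, with the next at 0.0472. Tlr9 was at 161 CPM in WT replicate 4 of 8 months, below the next at 235. Tlr5 was at 25.5 CPM in SgshKO replicate 3 of 3 weeks, beside 23.8 in the next, a small gap in a tight group. In the WT ASO libraries, Tlr13 was at 791 CPM in Mitf ASO replicate 1 (next 639), Tlr6 at 93.4 CPM in ntc replicate 3 (next 106) and Tlr9 at 418 CPM in PBS replicate 1 (next 436).

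The genotype difference changed with age for 3 receptors by the interaction test in edgeR. For Tlr2 it changed by 1.04 on the log2 scale between 3 weeks and 4 months and by 1.61 between 3 weeks and 8 months. For Tlr5 it changed by -1.14 and for Tlr7 by -0.71 between 3 weeks and 8 months.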

How the results depend on the processing

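Over 2778 recomputed values of single receptors, 2693 kept their side of the threshold, 50 were no longer called and 35 became called. No called value changed sign, and 127 of the 2693 were uncalled values of the opposite sign. The number of receptors called ran, without 1 library at a time, from 1 to 2 at 3 weeks, 3 to 6 at 4 months and 8 to 9 at 8 months. It was 1 to 1, 3 to 4 and 0 to 1 for the interactions of 4 months with 3 weeks, 8 months with 3 weeks and 8 with 4 months, 5 to 5 for WT age and 6 to 7 for SgshKO age. It was 0 to 0 for ntc against PBS, 1 to 3 for Mitf, 0 to 0 for Tfeb, 0 to 1 for Tfe3, 0 to 1 for Mitf against Tfeb, 0 to 0 for Mitf against Tfe3 and for Tfeb against Tfe3, and 5 to 5 for the combination in SgshKO.

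Without the replicate block, calls went from 3 to 1 for Mitf, from 1 to 0 for Tfeb and from 1 to 0 for Mitf against Tfeb; the replicate block in the age series lost Tlr7 from the interaction of 8 months with 3 weeks (2 calls) and changed no other call. Fitted on the groups compared alone, calls were 3 at 3 weeks, 6 for Mitf, 2 for Tfeb, 1 for Tfe3, 1 for Mitf against Tfe3 and 2 for Tfeb against Tfe3. With DESeq2 they were 3 at 3 weeks, 4 and 1 for the interactions of 8 months with 3 weeks and with 4 months, 7 for SgshKO age, 4 for Mitf, 2 for Tfeb, 1 for Tfe3 and 2 for Tfeb against Tfe3. Without the filter on low counts they were 4 for the interaction of 8 months with 3 weeks and 7 for SgshKO age. For Tfe3 there was also 1 call (Tlr5) on the batch-corrected signal and with PBS replicate 4 placed in grp 3, as its column name has it. All 3 TPM fits gave 4 calls at 4 months and 9 at 8 months, the batch-corrected signal gave 2 for Mitf, unfiltered TPM gave 1 call at 3 weeks, and the covariate of Ddx3y minus Xist, chosen after seeing the data like the fits without neutrophil-rich libraries, gave 3 for WT age. In SgshKO, grp 1 alone gave 1 call and grp 2 alone 3. The share of all genes called in each of these fits is not given here. The counts therefore do not show a change particular to the receptors. The cause of the changes in calls was not tested, and the fits with a part left out also had fewer libraries. Depth limits Tlr8 most, with 10 reads in all WT libraries of 8 months.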
